A study of Mus musculus with 6 samples.

Results

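The 46 genes described here encode proteins that copy DNA in S phase or that drive and check mitosis, and they were chosen by symbol from an RNA-Seq table of mouse mesangial cells. All 46 were found among the 19730 rows of the table. Of these, 22 are S-phase genes and 22 are mitotic genes, while the cyclin-dependent kinases Cdk2 and Cdk4 act in interphase and were placed in neither list. A mean of at least 1 FPKM over the 6 libraries was needed for a test, and 39 members reached it: 20 S-phase genes, 17 mitotic genes and both interphase kinases. FPKM is the number of fragments scaled by transcript length and library depth. Comparisons between genes therefore rest on the transcript length used, and those between libraries on the scaling.

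The cell cycle doubles the genome in S phase and divides it in mitosis. Cyclin E with CDK2 and the E2F transcription factors start S-phase transcription, and E2F sites lie in many promoters of replication genes. Genes of mitosis are transcribed later, by the MYBL2 and FOXM1 factors acting through a short promoter element named CHR, and in resting cells the DREAM complex, built on an RB-family protein, holds both sets down. TGF-β is known to stop many epithelial cells in G1 through the inhibitors p15 and p21, and mesangial cells, which hold the capillary loops of the glomerulus together, divide slowly in healthy kidney.

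RNA came from primary mouse mesangial cells of passage 3 to 6, all kept in Dulbecco's medium with 25.5 mM glucose and 20% foetal bovine serum. The 3 Control libraries had no TGF-β1 in their label, and the 3 TGF-β1 libraries came from cells given 10 ng/ml of this cytokine, transforming growth factor β1, for 72 h. No vehicle, genotype or strain was stated for either group, and the samples are described as triplicates without saying whether each was a separate culture, so each p-value measures the spread between these libraries, which may be technical. The comparison asked here is which replication and division genes differed in RNA level after 72 h, and whether the S-phase and mitotic lists moved alike.

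The libraries held about 10.12 to 11.05 M fragments, as estimated from the steps between low FPKM values. Acta2, the smooth muscle actin of activated mesangial cells, had a mean of 997 FPKM in Control and 3887 FPKM in TGF-β1, and Vim and Pdgfrb were also abundant. Vim rose (2191 to 3436 FPKM, limma adjusted p = 0.0070) and Pdgfrb fell (37.5 to 29.2 FPKM, limma adjusted p = 0.040). In contrast, Itga8, Des, Thy1 and Pdgfra, which mark mesangial cells and their relatives in the kidney, were each under 0.6 FPKM in every library, so the label rests on Acta2, Vim and Pdgfrb. Of the same list, Gata3 was low (1.76 to 1.03 FPKM, limma adjusted p = 0.28). Cspg4 rose from 0.073 to 1.21 FPKM in the fit without the filter (limma adjusted p = 0.00095). The defining markers of leukocytes (Ptprc), endothelium (Cdh5, Kdr) and podocytes (Nphs1) were each under 0.4 FPKM in every library. The podocyte markers Synpo (12.3 ± 0.64 to 7.88 ± 0.57 FPKM) and Podxl (2.21 ± 0.24 to 1.18 ± 0.30 FPKM) were expressed and fell (limma adjusted p = 0.0024 and 0.018), and the summed podocyte list was 13.8 to 15.4 FPKM in Control and 8.51 to 10.1 FPKM in TGF-β1. The summed FPKM of the 6 macrophage markers in the table was 87.0 to 113.8 in Control and 9.03 to 11.3 in TGF-β1, through Cd14 and Csf1r, and that of the 5 tubular markers was 114.3 to 146.4 and 8.44 to 9.59, through Cdh16. Of the same tubular list, Krt18 (0.28 to 1.57 FPKM) and Krt19 (0.16 to 1.07 FPKM) were higher in the fit without the filter (limma adjusted p = 0.0014 and 0.0056). Whether these shifts have a part in any cell cycle value was not tested. In these bulk samples fewer cycling cells and less RNA per cycling cell cannot be told apart.

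Of the 39 tested members, 12 passed an adjusted p of 0.05 by limma with Benjamini-Hochberg adjustment over all 11898 tested rows, 4 of them higher and 8 lower with TGF-β1. That is 30.8% of the members, where 48.1% of all tested rows were called (24.5% higher and 23.6% lower). An unadjusted p under 0.05 by limma was reached by 14 of the 39 members and by 6569 of the 11898 tested rows. The median absolute log2 change was 0.27 over the members and 0.40 over all tested rows, and 1 called member, Tpx2, reached a 2-fold change on the log2(FPKM + 1) scale. In 29 of the 39 members (74.4%) the 95% interval of the change lay within 1 log2 unit of 0, compared with 66.9% of all tested rows. The S-phase list split, with 3 genes higher and 4 lower of 20 tested, and its median log2 change was 0.075 (-0.019 with median-ratio scaling between libraries and -0.10 when rescaled to the sum of coding rows, a setting chosen after seeing the data). These scalings moved the median of all tested rows from -0.017 to -0.11 and -0.19, and the share of all calls that were higher from 50.9% to 41.4% and 33.9%. Among the 17 tested mitotic genes 1 rose and 4 fell, and the median log2 change was -0.27, beside -0.017 over all tested rows. The mitotic median was negative under every setting run, but it was -0.044 with quantile normalization and -0.023 over the 8 genes with a mean of at least 3 FPKM. Taken over all 22 genes of each list, filter or not, the medians were 0.056 and -0.25. Every change given is TGF-β1 minus Control as a difference in log2(FPKM + 1), and the added 1 shrinks the change of genes with a low FPKM.

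**Figure D1:**
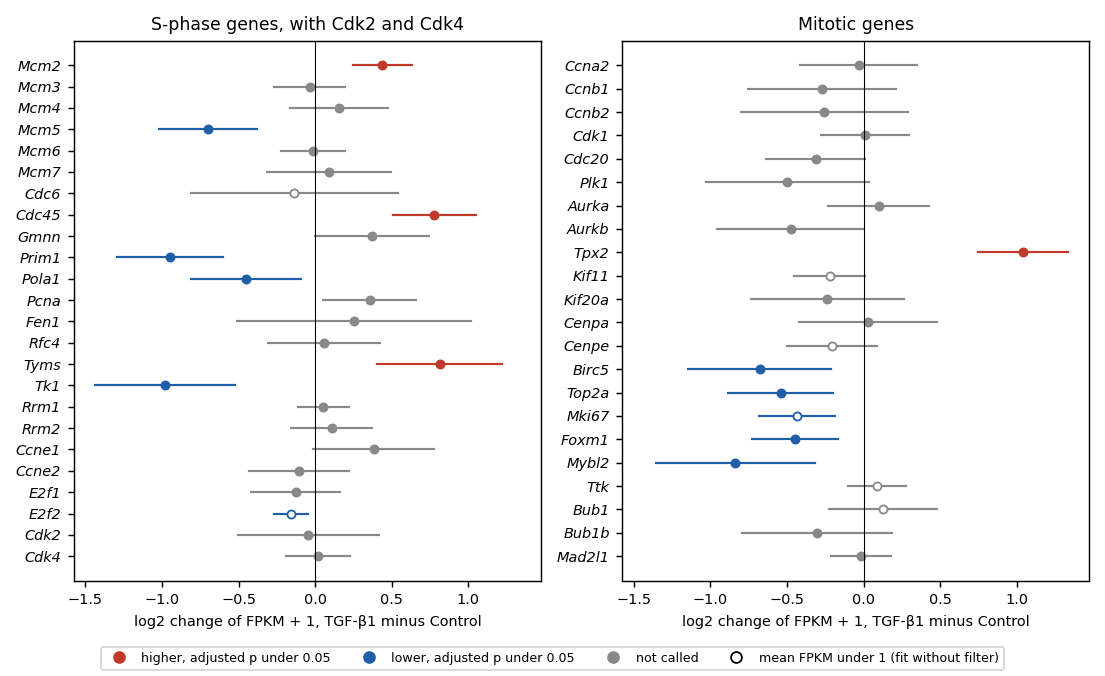
Log2 change of FPKM + 1 (TGF-β1 minus Control) on the horizontal axis for the S-phase genes with Cdk2 and Cdk4 and for the mitotic genes, with points for the estimate and bars for the 95% interval from limma (3 libraries a group). Open points are the 7 members under a mean of 1 FPKM, taken from the fit without that filter. Called S-phase genes stand on both sides of 0, from -0.98 (Tk1) to 0.81 (Tyms), while the called mitotic genes stand below 0 except Tpx2 at 1.04.

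Gene positions are given for the 12 called genes, from start to end of the gene on build mm9. The replicative helicase is the MCM2 to MCM7 ring, which opens the double helix ahead of the polymerases. Its 6 genes did not move together: Mcm2 rose, Mcm5 fell and the other four did not pass the test. Mcm2 (chr6:88833469-88848774) was at 5.25, 5.17 and 5.18 FPKM in Control and at 7.62, 7.01 and 7.61 FPKM in TGF-β1. All treated libraries were above all Control libraries, and the log2 change was 0.44 (SE 0.079, n = 3 per group, limma adjusted p = 0.0051). Mcm5 (chr8:77633427-77652338) was at 3.87, 2.84 and 2.84 FPKM in Control and at 1.49, 1.61 and 1.58 FPKM in TGF-β1. Its treated libraries were close to each other and all below Control, and Mcm5 fell by 0.70 on the log2 scale (SE 0.13, limma adjusted p = 0.0059). Mcm7 had the highest level of the ring, 23.6 ± 2.46 FPKM in Control and 25.5 ± 5.87 FPKM in TGF-β1 (SD, n = 3), with TGF-β1 replicate 2 the highest library, and its log2 change of 0.091 did not pass (95% interval -0.31 to 0.50). Mcm3, Mcm4 and Mcm6 had log2 changes between -0.035 and 0.16, with overlapping groups. The ring's summed level was 60.9 to 63.3 FPKM in Control and 59.7 to 75.4 FPKM in TGF-β1.

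Among the genes that license origins and run the fork, 1 rose and 2 fell. Cdc45 (chr16:18780540-18812080), which joins the MCM ring to form the active helicase, was at 1.17, 1.05 and 0.96 FPKM in Control and at 2.30, 2.62 and 2.69 FPKM in TGF-β1. Every treated library was above every Control library and the log2 change was 0.78 (SE 0.11, limma adjusted p = 0.0021), on about 20 to 56 fragments per library. Prim1 (chr10:127452228-127467093), the primase subunit that lays down RNA primers, was at 9.98, 8.52 and 7.23 FPKM in Control and at 3.78, 4.59 and 3.49 FPKM in TGF-β1. The lowest Control library was well above the highest treated library, and Prim1 fell by 0.95 on the log2 scale (SE 0.14, limma adjusted p = 0.0025). Pola1 (chrX:90550106-90877494), the catalytic subunit of the polymerase that extends those primers, was at 1.57, 1.41 and 1.97 FPKM in Control and at 0.91, 1.18 and 0.74 FPKM in TGF-β1. Its groups did not overlap either, but the change of -0.45 (SE 0.15, limma adjusted p = 0.046) passed narrowly and was lost in 12 of 18 other settings.

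Pcna, the sliding clamp that holds polymerases on DNA, was the most abundant gene of the S-phase list. It was at 31.3, 31.4 and 23.4 FPKM in Control and at 36.5, 37.1 and 36.4 FPKM in TGF-β1. Its groups did not overlap, Control replicate 3 was the lowest library, and the log2 change of 0.36 missed the threshold (SE 0.13, limma adjusted p = 0.057). Without Control replicate 3 the change was 0.22 with an adjusted p of 0.040 by limma. Gmnn, an inhibitor of origin licensing, was at 1.53, 2.13 and 2.43 FPKM in Control and at 3.10, 2.47 and 3.14 FPKM in TGF-β1, and its log2 change of 0.37 did not pass (limma adjusted p = 0.090). The groups of Gmnn were separated by a narrow gap, between Control replicate 3 and TGF-β1 replicate 2. The flap nuclease Fen1 had the widest interval of the list, from -0.51 to 1.02, and the clamp loader Rfc4 stayed at 5.03 ± 0.86 FPKM in Control and 5.28 ± 0.84 FPKM in TGF-β1. Cdc6, which loads the MCM ring, was under the filter at 0.20 to 0.91 FPKM in Control and 0.078 to 1.003 FPKM in TGF-β1, and without the filter its log2 change was -0.14 (limma adjusted p = 0.74).

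The enzymes that make thymidylate went opposite ways. Tyms (chr5:30384742-30400157), thymidylate synthase of the de novo route, was at 16.2, 16.2 and 11.7 FPKM in Control and at 24.3, 31.6 and 23.5 FPKM in TGF-β1. All treated libraries exceeded all Control libraries, and the log2 change was 0.81 (SE 0.17, limma adjusted p = 0.0089). Tk1 (chr11:117676840-117687406), the thymidine kinase of the salvage route, was at 9.55, 9.70 and 9.80 FPKM in Control and at 3.00, 5.34 and 5.25 FPKM in TGF-β1. Control libraries were close to each other, TGF-β1 replicate 1 was the lowest, and Tk1 fell by 0.98 on the log2 scale (SE 0.19, limma adjusted p = 0.0066). The ribonucleotide reductase subunits, which make all deoxynucleotides, had small differences that did not pass: 12.6 ± 0.27 against 13.1 ± 0.30 FPKM for Rrm1, and 4.90 ± 0.63 against 5.33 ± 0.28 FPKM for Rrm2. Their 95% intervals on the log2 scale ran from -0.12 to 0.22 and from -0.16 to 0.37.

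No tested gene passed among the cyclins and E2F factors that open S phase, with 0 of 3 called by limma and 0 of 3 at an unadjusted p under 0.05. E2f1, which activates replication genes, was at 5.12, 5.95 and 6.27 FPKM in Control and at 5.12, 5.94 and 4.60 FPKM in TGF-β1, with a log2 change of -0.13 (95% interval -0.42 to 0.16). Ccne1, the CDK2-activating cyclin E1, was at 1.79, 1.91 and 2.76 FPKM in Control and at 2.53, 3.51 and 3.22 FPKM in TGF-β1. Its groups overlapped through Control replicate 3, and the log2 change of 0.38 did not pass (limma adjusted p = 0.10). Without that library the change was 0.51 with a limma adjusted p of 0.036. The row of Ccne2 names a non-coding transcript of 418 nt, while the longest coding transcript of the gene has 3006 nt. At the named length the row held about 2 to 4 fragments per library, an estimate that would be higher if it holds the whole gene. The log2 change of Ccne2 was -0.11 and did not pass (limma adjusted p = 0.55). E2f2 was under the filter at 0.20 to 0.24 FPKM in Control and 0.074 to 0.13 FPKM in TGF-β1, about 4 to 12 fragments per library, and fell by 0.16 on the log2 scale in the fit without the filter (limma adjusted p = 0.045).

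The interphase kinases had nearly the same level in both groups. Cdk4, the partner of the D-type cyclins, was by far the most abundant member, at 991, 977 and 971 FPKM in Control and at 975, 1047 and 957 FPKM in TGF-β1. Its 95% interval for the log2 change was -0.19 to 0.23. Cdk2, the partner of cyclins E and A, was at 13.6 ± 3.18 FPKM in Control and 13.1 ± 2.44 FPKM in TGF-β1, with an interval of -0.51 to 0.42.

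**Figure D2:**
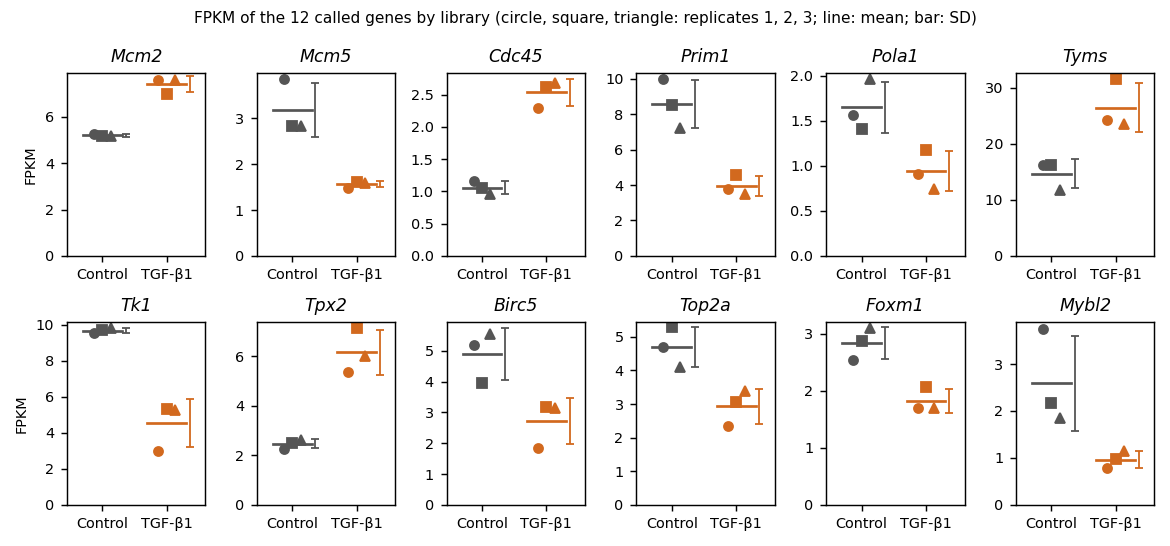
FPKM (vertical axes, each from 0) of the 12 called genes in the 3 Control and 3 TGF-β1 libraries, with a line for the group mean, a bar for the SD and the point's shape for the replicate number. In all 12 panels the Control and TGF-β1 points do not overlap, with Mcm2, Cdc45, Tyms and Tpx2 higher and the other 8 genes lower in TGF-β1.

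The mitotic genes were expressed at lower levels than the S-phase genes, with a median of 1.87 FPKM over the list compared with 5.13 FPKM. Of the cyclins, CDK1 and CDC20, which start mitosis and its exit, 0 of 5 were called by limma and 0 of 5 had an unadjusted p under 0.05. Cdk1, the kinase of mitotic entry and the most abundant gene of the list, was at 12.2, 12.5 and 14.8 FPKM in Control and at 11.6, 14.5 and 13.8 FPKM in TGF-β1. The groups overlapped, with a log2 change of 0.012 and a 95% interval of -0.28 to 0.30. Ccna2, cyclin A2, was at 5.96 ± 1.26 and 5.75 ± 0.56 FPKM, and Ccnb1, cyclin B1, at 1.94 ± 0.62 and 1.41 ± 0.31 FPKM in Control and TGF-β1. Cdc20, which activates the anaphase-promoting complex, was at 5.32, 4.03 and 3.67 FPKM in Control and at 3.15, 3.33 and 3.30 FPKM in TGF-β1. Its groups did not overlap, and the change of -0.31 missed the threshold (SE 0.13, limma adjusted p = 0.10).

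None of the 3 mitotic kinases was called, and none had an unadjusted p under 0.05 by limma. Groups did not overlap for 2 of them, as was the case for 59.4% of all tested rows. Plk1, polo-like kinase 1, was at 2.03, 1.67 and 2.04 FPKM in Control and at 1.32, 0.49 and 1.52 FPKM in TGF-β1, and its change of -0.50 did not pass (SE 0.22, limma adjusted p = 0.11). TGF-β1 replicate 2 was the lowest library of Plk1, on about 10 fragments, and with replicate 2 as a batch term the same change passed (limma adjusted p = 0.045). Aurkb, the kinase of the chromosomal passenger complex, was at 1.38, 2.23 and 1.05 FPKM in Control and at 0.62, 0.85 and 0.95 FPKM in TGF-β1, and its change was -0.48 (SE 0.20, limma adjusted p = 0.093). Aurka, the kinase of spindle poles, was at 2.22 ± 0.30 FPKM in Control and 2.45 ± 0.40 FPKM in TGF-β1, with overlapping groups.

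Of the genes for the spindle, centromere and chromosomes, 5 of 8 passed the filter, and Tpx2 rose while Birc5 and Top2a fell. Tpx2 (chr2:152673700-152721057), which activates Aurora A on spindle microtubules, was at 2.26, 2.51 and 2.64 FPKM in Control and at 5.36, 7.14 and 6.00 FPKM in TGF-β1. The lowest treated library was above the highest Control library by more than the range of Control. On the log2(FPKM + 1) scale the change of 1.04 was the largest of all members (SE 0.12, limma adjusted p = 0.00089). Birc5 (chr11:117710565-117717069), or survivin, of the same complex as Aurkb, was at 5.21, 3.96 and 5.55 FPKM in Control and at 1.85, 3.16 and 3.15 FPKM in TGF-β1. It fell by 0.68 on the log2 scale (SE 0.19, limma adjusted p = 0.029), and TGF-β1 replicate 1 was its lowest library. Top2a (chr11:98854257-98885503), the topoisomerase that untangles sister chromatids, was at 4.70, 5.29 and 4.11 FPKM in Control and at 2.35, 3.06 and 3.37 FPKM in TGF-β1. Its groups did not overlap and it fell by 0.54 (SE 0.14, limma adjusted p = 0.021). Cenpa, the centromeric histone, was at 3.91 ± 1.11 FPKM in Control and 3.95 ± 0.63 FPKM in TGF-β1, and the cytokinesis kinesin Kif20a at 1.46 ± 0.60 and 1.05 ± 0.18 FPKM.

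The genes under the filter here were Mki67, Kif11 and Cenpe. Mki67, the gene of the proliferation antigen Ki-67, was at 0.82, 1.09 and 1.25 FPKM in Control and at 0.50, 0.49 and 0.55 FPKM in TGF-β1. All treated libraries were below all Control libraries, and in the fit without the filter it fell by 0.43 (SE 0.10, limma adjusted p = 0.023), on about 49 to 133 fragments per library of a long transcript. Kif11, the motor that separates spindle poles, was at 0.75, 0.92 and 0.64 FPKM in Control and at 0.51, 0.62 and 0.42 FPKM in TGF-β1. It did not pass without the filter (log2 change -0.22, limma adjusted p = 0.14), and neither did the kinetochore motor Cenpe (-0.21, limma adjusted p = 0.26), whose groups overlapped.

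Both transcription factors of the mitotic programme fell. Foxm1 (chr6:128312985-128325911) was at 2.54, 2.88 and 3.10 FPKM in Control and at 1.69, 2.06 and 1.69 FPKM in TGF-β1, and it fell by 0.45 on the log2 scale (SE 0.12, limma adjusted p = 0.020). Mybl2 (chr2:162880423-162910424), or B-Myb, was at 3.74, 2.16 and 1.85 FPKM in Control and at 0.78, 0.98 and 1.14 FPKM in TGF-β1, and it fell by 0.84 (SE 0.21, limma adjusted p = 0.019). Control replicate 1 was the highest library of Mybl2, and for both genes every treated library was below every Control library. Neither of the 2 tested genes of the spindle checkpoint, which delays anaphase, was called by limma or had an unadjusted p under 0.05. Mad2l1 was at 9.42, 10.4 and 9.89 FPKM in Control and at 9.73, 9.29 and 10.3 FPKM in TGF-β1, with a 95% interval for the log2 change of -0.21 to 0.18. Bub1b had a log2 change of -0.30 (limma adjusted p = 0.26). Bub1 and Ttk were under the filter, with log2 changes of 0.12 and 0.089 and limma adjusted p of 0.56 and 0.44 without it.

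The 4 falls among the tested mitotic genes each lost their call in 4 to 6 of the other settings. Without TGF-β1 replicate 1 the adjusted p of Birc5, Top2a, Foxm1 and Mybl2 lay between 0.059 and 0.064 by limma, so that 0 mitotic genes were called lower, with 4 at an unadjusted p under 0.05. Quantile normalization also left 0 called lower by limma, with 3 at an unadjusted p under 0.05. Without Control replicate 1 or without Control replicate 2, 3 mitotic genes were called in place of 5, and the mitotic median was -0.41 and -0.16. In contrast, Tpx2, Mcm2, Mcm5, Cdc45, Prim1, Tyms and Tk1 passed in every setting that tested them, including each left-out library. Mcm5 and Cdc45 were not tested in the setting with a mean of at least 3 FPKM.

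Set against each other, the mitotic members leaned to lower values with TGF-β1, while the S-phase members had no common direction. The medians of further genes of the pathway lay close together, at -0.19 over 36 replication genes and -0.22 over 37 mitotic genes. Those of the members were 0.059 and -0.023 over the genes with a mean of at least 3 FPKM. Of the 22 mitotic genes 16 had a negative change and 6 a positive one, while the 22 S-phase genes had 10 negative and 12 positive changes. Among tested genes 76.5% of the mitotic list was negative, compared with 51.2% of all tested rows. These rows were not matched to the lower FPKM of the mitotic list, and without the filter 55.1% of all rows were negative. Groups that did not overlap were seen for 9 mitotic genes lower and 1 higher, and for 5 S-phase genes lower and 5 higher. With the filter, 7 of 17 mitotic genes were separated downwards and 1 upwards, and 4 of 20 S-phase genes downwards and 5 upwards, where 59.4% of all tested rows were separated (29.9% higher and 29.5% lower). The share of called genes was 29.4% for the mitotic list and 35% for the S-phase list, both below the 48.1% of all rows. Of the 16 mitotic genes with a negative change, 4 were called lower among the tested genes and Mki67 in the fit without the filter. Of the 12 tested mitotic genes that were not called, 11 had a 95% interval within 1 log2 unit of 0. The added 1 makes this easier to meet at a low FPKM. Aurkb was among the 11 with a ratio of mean FPKM, TGF-β1 to Control, of 0.52.

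The same member values were then averaged within each library, which restates the comparison of the lists by library and is no separate support for it. The mean log2(FPKM + 1) level of the 17 tested mitotic genes was 2.10, 2.18 and 2.05 in Control and 1.84, 1.88 and 1.95 in TGF-β1, and the treated libraries were all lower. That of the 20 tested S-phase genes was 2.76, 2.72 and 2.73 in Control and 2.72, 2.82 and 2.75 in TGF-β1, and these overlapped. The difference of the mitotic mean from the S-phase mean, in which any common scaling of a library largely cancels, was -0.66, -0.55 and -0.68 in Control and -0.88, -0.93 and -0.80 in TGF-β1. It averaged -0.63 ± 0.073 and -0.87 ± 0.068 (SD, n = 3) and did not overlap between the groups. With all 22 genes of each list it was -0.78, -0.66 and -0.75 in Control and -0.93, -1.02 and -0.86 in TGF-β1, again without overlap. No p was computed for these averages, since the members were chosen as a list. In summed FPKM, which the abundant genes dominate, the S-phase list was at 153.9 to 168.9 in Control and 171.2 to 197.0 in TGF-β1, and the mitotic list at 69.5 to 74.1 and 59.3 to 66.0.

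**Figure D3:**
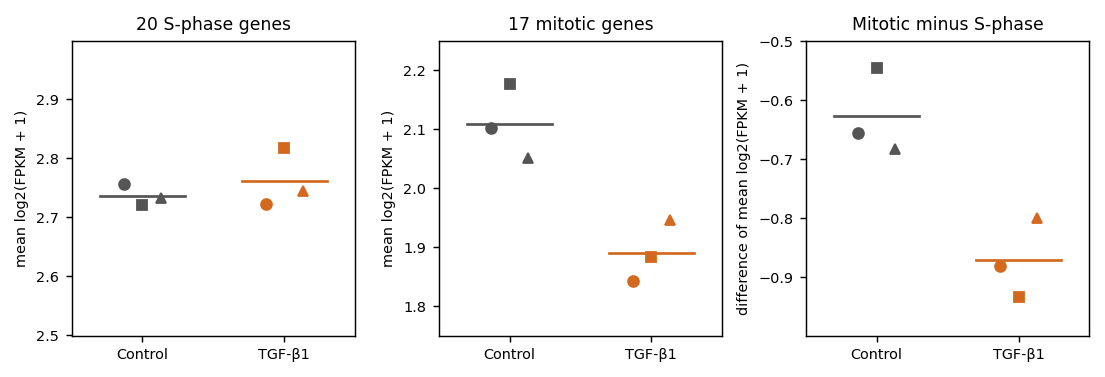
Mean log2(FPKM + 1) level of the 20 tested S-phase genes and the 17 tested mitotic genes, and their difference (mitotic minus S-phase), with a point per library and all vertical axes of equal span. The S-phase means overlap between Control and TGF-β1, while the mitotic means (2.05 to 2.18 against 1.84 to 1.95) and the differences (-0.68 to -0.55 against -0.93 to -0.80) do not.

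**Figure D4:**
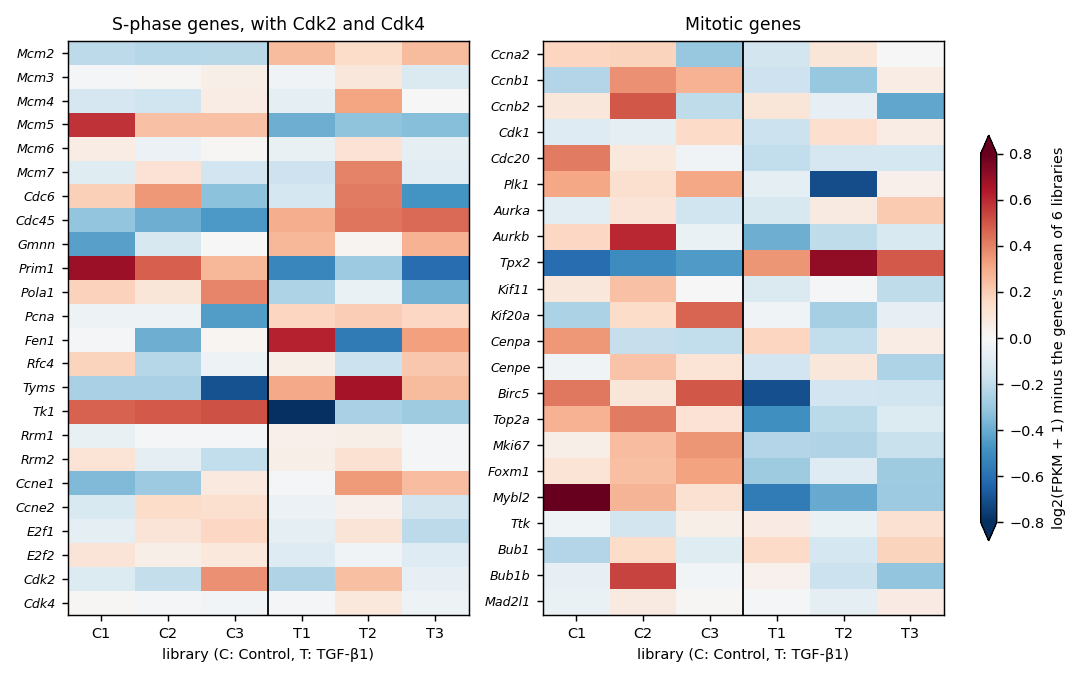
Deviation of each member's log2(FPKM + 1) from its mean over the 6 libraries, with genes in rows, libraries in columns (C1 to C3 Control, T1 to T3 TGF-β1) and colour from blue (below the mean) to red (above it), ends at 0.8. Rows such as Tk1, Prim1, Mcm5, Mybl2 and Birc5 turn from red to blue between the groups, Tpx2, Tyms and Cdc45 turn from blue to red, and rows such as Cdk4, Rrm1 and Mad2l1 stay pale.

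Promoter sequences were read to see what the genes that rose and fell shared beyond their function. RefSeq promoters of 300 bases, from 250 before to 50 after the start on GRCm38.p6, were found for 38 of the 46 members. Exact letters were searched on both strands: TTCCCGC or TTGGCGC for an E2F site, TTTGAA for the CHR element and CCAAT for the CCAAT box. An E2F match read on the other strand (GCGCCAA) can share bases with a CCAAT box. Sites with other letters are missed, so a gene without a match may still carry the element. An E2F match was present in 10 of 19 S-phase genes (52.6%) and 3 of 17 mitotic genes (17.6%), beside 7.79% of the 27025 genes of the promoter table. CHR letters were present in 4 of 19 S-phase genes (21.1%) and 11 of 17 mitotic genes (64.7%), beside 20.2% of all genes. CHR and CCAAT together were present in 15.8% of S-phase genes and 64.7% of mitotic genes, beside 8.97% of all genes. Among tested mitotic genes the exact CHR letters were in 1 of the 3 called lower that had a promoter (Top2a, not Birc5 or Mybl2). Mki67, called lower only in the fit without the filter, had CHR letters at 2 places. The CHR letters were in 7 of the 9 tested mitotic genes with a promoter that were not called.

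**Figure D5:**
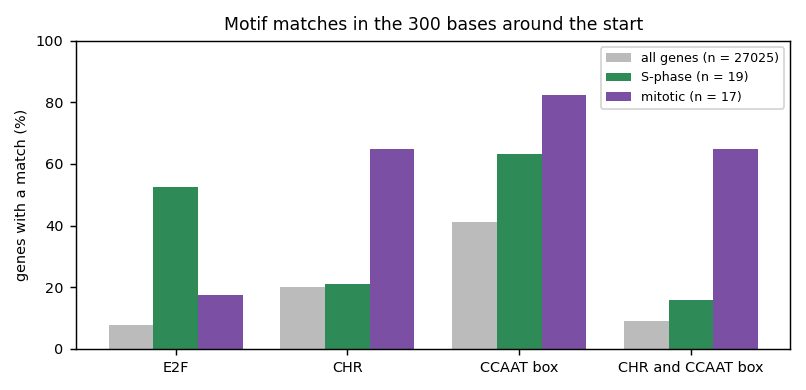
Share of genes (%, vertical axis) with at least 1 exact match of each element in the 300 bases around the start, for S-phase genes, mitotic genes and all genes of the promoter table. E2F letters are most frequent in S-phase genes (52.6%), and CHR letters, alone or with a CCAAT box, in mitotic genes (64.7%).

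Among the S-phase genes the 3 that rose had no E2F match, and 2 of them, Mcm2 and Cdc45, had CHR letters. Of the 4 tested genes that fell, 3 (Mcm5, Prim1 and Pola1) had E2F matches and 0 had CHR letters. E2f2, called lower only in the fit without the filter, had an E2F match and CHR letters, each in a different promoter window. Of the 10 tested S-phase genes with a promoter that were not called, 5 had E2F matches and 1 had CHR letters. With so few genes this is a description and was not tested. The promoters of Mcm2 and Cdc45, which rose, are printed with those of Mcm5 and Prim1, which fell, since Mcm2 and Mcm5 belong to the same ring and Cdc45 and Prim1 work at the same fork. They lie on GRCm38.p6 at chr6:88898731-88899030 (minus strand, Mcm2), chr16:18811923-18812222 (minus strand, Cdc45), chr8:75109259-75109558 (plus strand, Mcm5) and chr10:128014965-128015264 (plus strand, Prim1). Capitals mark E2F and CHR matches, and positions count from 0 at the start. The E2F matches of Mcm5 begin at -164 and -149 and that of Prim1 at -15, and the CHR letters begin at -70 in Mcm2 and at -240 and 10 in Cdc45.
Mcm2: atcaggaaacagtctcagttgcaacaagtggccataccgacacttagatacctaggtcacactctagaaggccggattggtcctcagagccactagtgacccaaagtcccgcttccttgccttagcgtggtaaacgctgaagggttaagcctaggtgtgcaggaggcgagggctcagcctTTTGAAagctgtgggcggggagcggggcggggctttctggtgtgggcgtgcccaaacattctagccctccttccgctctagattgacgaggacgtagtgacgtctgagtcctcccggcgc
Cdc45: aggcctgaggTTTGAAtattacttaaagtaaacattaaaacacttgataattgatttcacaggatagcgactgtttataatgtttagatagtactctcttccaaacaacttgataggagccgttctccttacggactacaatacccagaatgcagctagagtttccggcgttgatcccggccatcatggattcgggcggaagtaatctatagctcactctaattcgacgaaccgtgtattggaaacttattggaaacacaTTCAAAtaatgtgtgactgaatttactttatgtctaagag
Mcm5: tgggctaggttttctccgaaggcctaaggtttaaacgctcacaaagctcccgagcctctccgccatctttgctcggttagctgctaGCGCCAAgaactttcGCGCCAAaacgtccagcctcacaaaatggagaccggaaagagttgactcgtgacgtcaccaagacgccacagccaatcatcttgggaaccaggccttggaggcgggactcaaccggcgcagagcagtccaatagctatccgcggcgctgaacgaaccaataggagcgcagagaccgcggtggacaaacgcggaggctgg
Prim1: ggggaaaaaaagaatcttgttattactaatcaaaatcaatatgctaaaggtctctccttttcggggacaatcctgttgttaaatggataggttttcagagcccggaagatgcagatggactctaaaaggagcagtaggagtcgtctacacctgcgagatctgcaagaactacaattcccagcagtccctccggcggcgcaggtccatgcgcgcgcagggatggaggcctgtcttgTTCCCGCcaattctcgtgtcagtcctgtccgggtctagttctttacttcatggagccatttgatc

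Top2a and Cdk1 are shown for the mitotic list, because both carry CHR letters at 2 places and several CCAAT boxes, while Top2a fell and Cdk1 was not called. They lie at chr11:99024140-99024439 (minus strand, Top2a) and chr10:69352863-69353162 (minus strand, Cdk1). The CHR letters begin at -179 and -23 in Top2a, with 6 CCAAT boxes, and at -71 and -15 in Cdk1, with 3 CCAAT boxes and an E2F match at -178.
Top2a: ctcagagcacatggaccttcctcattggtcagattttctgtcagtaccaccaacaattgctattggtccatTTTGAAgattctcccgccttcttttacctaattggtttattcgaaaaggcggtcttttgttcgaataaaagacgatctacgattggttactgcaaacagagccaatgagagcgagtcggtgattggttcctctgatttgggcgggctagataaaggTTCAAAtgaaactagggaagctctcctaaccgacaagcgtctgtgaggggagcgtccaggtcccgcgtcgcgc
Cdk1: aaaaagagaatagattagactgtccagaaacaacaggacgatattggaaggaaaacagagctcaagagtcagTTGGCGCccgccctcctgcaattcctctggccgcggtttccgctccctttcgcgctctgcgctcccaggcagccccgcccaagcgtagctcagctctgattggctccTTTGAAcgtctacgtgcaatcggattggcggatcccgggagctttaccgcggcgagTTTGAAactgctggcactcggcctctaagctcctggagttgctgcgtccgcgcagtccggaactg

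Further genes of the pathway, outside the 46, were counted in the same way. Of 36 further replication genes tested, 6 rose and 7 fell (36.1%), with a median log2 change of -0.19. Dbf4, which activates the CDC7 kinase that fires origins, rose from 6.77 ± 0.85 to 10.4 ± 0.63 FPKM (0.56, limma adjusted p = 0.0063), Orc4, of the origin recognition complex, changed by 0.56 (limma adjusted p = 0.029), and the uracil glycosylase Ung by 0.73 (limma adjusted p = 0.0095). Among those that fell were the fork protein Timeless (-0.81) and the histone chaperone Chaf1b (-0.71). Of 37 further mitotic genes tested, 3 rose and 10 fell (35.1%), with a median of -0.22. Spc25, of the NDC80 kinetochore complex, fell from 18.4 ± 3.07 to 5.01 ± 1.69 FPKM (-1.72, limma adjusted p = 0.0016), its partner Spc24 changed by -0.72 and the spindle midzone protein Prc1 by -0.61. Those that rose were the CDK-binding subunits Cks2 (1.25, limma adjusted p = 0.0068) and Cks1b (1.195, limma adjusted p = 0.0070) and the spindle protein Ckap2 (0.86, limma adjusted p = 0.00085). In both further lists the called share was below the 48.1% of all rows.

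Among the regulators of G1, of 18 tested rows (17 genes, Rb1 with 2 rows) 7 rose and 4 fell, which is 61.1% beside the 48.1% of all rows. Cdkn1a, the inhibitor p21, was at 249, 251 and 246 FPKM in Control and at 753, 788 and 723 FPKM in TGF-β1 (1.596, SE 0.078, limma adjusted p = 3.5e-05). Cdkn2b, the inhibitor p15, was at 42.8, 26.5 and 43.1 FPKM in Control and at 262, 177 and 244 FPKM in TGF-β1 (2.59, SE 0.24, limma adjusted p = 0.00032). Both inhibitors thus rose in every treated library, and replicate 2 was the lowest of each group for Cdkn2b. Myc, a driver of cell growth, rose as well, from 7.49 ± 0.63 to 35.6 ± 3.47 FPKM (2.11, limma adjusted p = 3.5e-05). The inhibitors Cdkn1c, or p57 (-2.59), and Cdkn2c, or p18 (-0.94), fell, as did the D-type cyclin Ccnd3 (-0.54, limma adjusted p = 0.042). The other D-type cyclins, named after their values were seen, rose: Ccnd1 from 8.47 ± 0.14 to 25.05 ± 2.64 FPKM (1.46, limma adjusted p = 9.2e-05) and Ccnd2 from 90.9 ± 17.9 to 155.6 ± 17.2 FPKM (0.78, limma adjusted p = 0.0098). Cdkn2a, which encodes p16 and ARF, was at 448, 112 and 346 FPKM in Control and at 971, 110 and 979 FPKM in TGF-β1. The replicate 2 libraries of both groups were far below the others, and it did not pass (limma adjusted p = 0.49). Without the replicate 2 libraries of both groups, 7 S-phase and 2 mitotic genes were called, in place of 7 and 5, while with replicate 2 as a batch term 6 S-phase and 6 mitotic genes were called.

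Among the E2F and DREAM partners 2 rose and 2 fell of 11 tested, which is 36.4% beside the 48.1% of all rows. The activator E2f3 rose from 2.26 ± 0.16 to 4.38 ± 0.43 FPKM (0.72, limma adjusted p = 0.0022), and the E2F dimer partner Tfdp1 from 29.9 ± 0.42 to 40.2 ± 2.02 FPKM (0.41, limma adjusted p = 0.0042). The repressor E2f5 fell from 18.02 ± 2.25 to 12.6 ± 0.12 FPKM (-0.47, limma adjusted p = 0.011) and the DREAM subunit Lin37 from 71.2 ± 11.4 to 49.0 ± 4.59 FPKM (-0.52, limma adjusted p = 0.020).

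Depth and annotation limit the low genes most. Of the tested members, 11 had under 30 estimated fragments in their lowest library and 16 had at least 100 in every library. These estimates use the length of the transcript that each row names. The rows of 38 members belong to genes with 2 or more annotated transcripts, 5 rows (Ccne2, Foxm1, Cdc20, Cenpa and Tyms) name a transcript that is not annotated as coding, and 13 members overlap a gene on the opposite strand, including Cdc45, Tk1, Tyms, Top2a and Pola1, whose reads cannot be told apart from it if strand was not used.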

How the data were processed

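RNA-Seq was performed on 3 Control and 3 TGF-β1 libraries, grouped and numbered by the sample labels, and every value column matched a label. Reads of low quality were discarded by the authors, who aligned the others to mouse build mm9 with TopHat (TopHat2 2.0.11 in the submitters' processing notes) and then estimated FPKM with Cufflinks. The deposited values are FPKM, with no further scaling between libraries stated. Whether a row holds a gene or a single transcript, and whether strand was used, is not given in the sources used here. The authors tested counts with DESeq, and counts were not used here.

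Values were analysed as log2(FPKM + 1) with limma 3.58.1 in R 4.3.3 (lmFit, eBayes with a mean-variance trend), two-sided, over the 11898 of 19730 rows with a mean of at least 1 FPKM. Benjamini-Hochberg adjustment covered all tested rows and an adjusted p under 0.05 was called. Members under the filter were read from the same fit without it. The script was tested on simulated data. Depth (10.12 to 11.05 M fragments) was estimated from FPKM values that were whole multiples of 1 fragment within 0.15 (99.6% to 99.9% of values in single-transcript genes, assuming 200 nt fragments), and it covers counting error only. Rows were matched to GENCODE M1 on mm9 by transcript (19699 rows). Promoters came from RefSeq on GRCm38.p6. Python 3.11.15, pandas 2.3.3 and matplotlib 3.10.9 were used.

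The members, the lists beside them and the tests were chosen with earlier results of these data known. Genes named were called members, members with separated groups or the largest change or level of their role, members under the filter, and the called genes with the 3 largest rises and falls of each further list (1 gene that the rule selects is not reported here); all rises and falls are TGF-β1 minus Control. In all, 18 planned settings and 1 chosen after seeing the data were compared.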

Additional observations from a re-analysis of the deposited data

How the results depend on the processing

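The counts of calls, the list medians and the tested named members were recomputed under up to 18 planned settings and 1 added after seeing the data (rescaling each library to the sum of its protein-coding rows). Members under the filter, single further genes, the library means and the promoter shares were given in 1 setting. No called member among those named changed direction. For named members, 448 comparisons kept their status, which includes members not called in either setting. A call was lost in 34 comparisons, all of called members, and gained in 8. With an adjusted p under 0.01, 3672 rows were called in place of 5721, with 1 mitotic gene called, 0 of them lower by limma (4 at an unadjusted p under 0.05), 4 further replication genes, 5 further mitotic genes (2 lower) and 2 E2F and DREAM partners. With a mean FPKM of at least 3 fewer genes were tested, and 4 S-phase genes (2 lower), 3 mitotic genes (2 lower) and 6 further mitotic genes lower were called. Quantile normalization gave 5 S-phase genes higher, 1 mitotic gene changed and 0 lower by limma (3 at an unadjusted p under 0.05), 8 further replication genes and 8 further mitotic genes (3 lower). Replicates 1 and 3 alone gave 2 mitotic genes (1 lower), 7 further replication genes, 5 further mitotic genes (4 lower) and 2 E2F and DREAM partners. With replicate 2 as a batch term, 6 S-phase and 6 mitotic genes (5 lower) were called. The cause was not tested, apart from the fewer genes or libraries that these settings leave.

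The median log2 change of the S-phase genes, 0.075, became -0.019 with median-ratio scaling, -0.10 with the added rescaling and 0.16 with quantile normalization, so its sign depends on the scaling. That of the mitotic genes, -0.27, was -0.38 with a pseudocount of 0.1, -0.023 with a mean FPKM of at least 3, -0.34 with median-ratio scaling, -0.044 with quantile normalization, -0.10 with replicates 1 and 3 alone, -0.34 with GC content and length trends removed and -0.39 with the added rescaling. Median-ratio scaling and the added rescaling also moved the median of all rows, from -0.017 to -0.11 and -0.19, and the share of calls that were higher from 50.9% to 41.4% and 33.9%. Relative to the median of all rows the mitotic median was -0.25 in the reported fit and -0.23 and -0.21 under these scalings.

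Leaving out 1 library at a time gave 6 to 8 S-phase genes called (3 to 5 higher), 1 to 5 mitotic genes called (0 to 4 lower; 0 without TGF-β1 replicate 1, with 4 at an unadjusted p under 0.05), a mitotic median of -0.41 to -0.16, an S-phase median of 0.040 to 0.10, 6 to 12 further replication genes, 8 to 12 further mitotic genes and 5 to 9 of these lower. The lowest of these counts came without TGF-β1 replicate 1 or Control replicate 2, and without TGF-β1 replicate 3 there were 7 further replication genes and 6 further mitotic genes lower. The S-phase genes called higher were 5 without Control replicate 3.

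Whether equal replicate numbers mark pairs was not stated. The correlations of same-numbered deviations were 0.092, 0.23 and 0.085, and those of the other pairs ran from -0.19 to 0.12. Among these other pairs only Control replicate 1 with TGF-β1 replicate 3 (0.12) was above 0. With the replicate number as a block (replicate block), 5391 rows, 6 S-phase genes, 5 mitotic genes and 8 further replication genes, in place of 13, were called, and the S-phase call lost was Pola1. Depth limits the members of few fragments: the lowest median of a tested member was 3 fragments, that of Ccne2. This estimate uses the 418 nt of the transcript that its row names.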
